A study of Mus musculus with 12 samples.

Results

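Genes that mark or run B cells were followed on arrays of mouse pancreatic islets. The set was a fixed list of 31 genes that encode surface proteins of B cells, enzymes and adaptors of B cell receptor signalling, transcription factors of the B lineage and the cytokine lymphotoxin beta. A probe was matched to 30 of the 31 genes, out of 17305 named genes on the array, and each gene was represented by its brightest probe. Cd40 had no matched probe and was not analysed here. Of the 30 genes, 22 had 1 probe and 8 had 2 probes.

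RNA came from islets of 4 genotypes on a mixed C57BL/6 x Sv129 background, taken at 4 weeks of age by the labels from mice on chow, with 3 arrays per genotype and 12 in all. WT mice were wild type. PPARg2KO mice lacked PPARγ2, the adipose-enriched isoform of a lipid-activated nuclear receptor. OB mice, called ob/ob here, lacked leptin and carried PPARγ2, and DKO mice, called POKO here, lacked both. The deletions were present in the whole animal. Each array held a pool of islets from several mice, picked by hand after collagenase digestion and cultured overnight, so that n counts pools, and blood, vessel and exocrine cells that stay with islets were measured with them.

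B cells recognise antigen through an immunoglobulin held at the surface by the signalling chains CD79A and CD79B. Engaged receptors start a cascade in which the SRC-family kinases LYN and BLK act with SYK and BTK, the adaptor BLNK gathers them, and phospholipase C gamma 2 carries the signal on. PAX5 and EBF1 set up B cell identity, OCT2 (Pou2f2) with its coactivator OCA-B (Pou2af1) and SPIB serve the mature cell, and IRF4 and BLIMP1 (Prdm1) lead towards the plasma cell. Healthy islets hold few lymphocytes. Several of the listed genes are also used outside the B lineage: T cells and myeloid cells express Cd37, Cd53, Lyn, Syk or Irf4, and endocrine cells express genes such as Cd38 and Bcl11a.

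The PPARγ2 status in the label of each array was checked on the Pparg probe. Its normalized log2 signal was 6.41 to 7.44 on the 6 arrays of animals without PPARγ2 and 8.54 to 9.77 on the other 6, with no overlap. The Lep probe was near background on all arrays (1.25 to 1.42 on the log2 scale) and did not check leptin status. The arrays lay on 3 slides, each with 1 array of every genotype, at the same place on each slide, so position and genotype cannot be told apart. Arrays of ob/ob and POKO were brighter before normalization, with a median processed signal of 30.7 to 40.6 and 31.6 to 33.6, against 20.9 to 27 in WT and 23 to 30.4 in PPARγ2KO. The islet label was checked on marker genes. All 9 measured beta cell genes, all 7 genes of other endocrine cells and all 10 acinar genes were well above background on the WT arrays. Over the 12 arrays the mean log2 signal was 10.22 to 11.70 for beta cell and 10.38 to 11.15 for other endocrine genes. It was higher for acinar genes, at 16.35 to 16.91.

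One array stood apart for these genes. PPARγ2KO replicate 2 was above all 3 WT arrays in 24 of the 30 genes (80%), against 27.9% of named genes. Over the 16 genes that rose in ob/ob it lay a median of 3.04 log2 units above the mean of PPARγ2KO replicates 1 and 3, with a range of 0.44 to 5.77, and in 12 of the 16 it was inside the range of the 6 leptin-deficient arrays. Of the 30 genes 19 (63.3%) were more than 1 log2 unit higher on it than on its 2 companions, against 5.74% of all named genes. Its Pparg signal of 7.27 was that of an array without PPARγ2. That probe does not tell PPARγ2KO from POKO, and the Lep probe gave no check, so its leptin status was not checked. T cell genes (mean log2 signal 2.75 above WT) and pan-leukocyte genes (3.04 above WT) were high on the same array. All 4 genotypes share 1 estimate of the spread, so main results below are also given without this array. The array was picked out by its values on these same genes. Leaving it out therefore lowers their spread and, in comparisons with PPARγ2KO, moves the differences themselves. It also leaves PPARγ2KO with replicates 1 and 3 only. Counts and p values without it are therefore descriptions and no independent support.

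**Figure D1:**
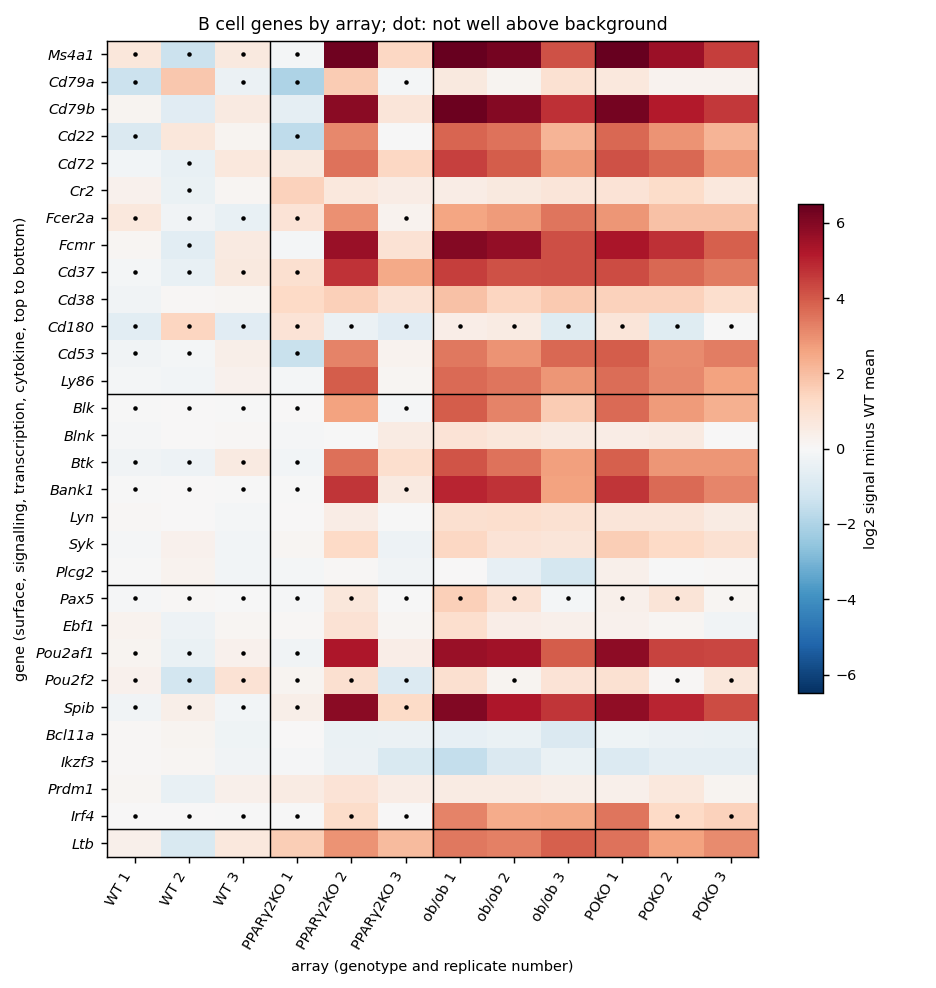
Heat map of the 30 measured genes (rows, grouped from top to bottom as surface, signalling, transcription and cytokine genes) on the 12 arrays (columns), coloured by log2 signal minus the WT mean, with a dot where the probe was not well above background. The columns of ob/ob, POKO and PPARγ2KO replicate 2 are red for most surface and signalling genes, while PPARγ2KO replicates 1 and 3 resemble WT.

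B cell genes were higher in ob/ob than in WT islets. Of 30 genes 16 (53.3%) rose and none fell, where 4.51% of all named genes rose and 2.17% fell (limma, adjusted p at most 0.05 and a log2 difference of at least 1). The median difference was 2.83 on the log2 scale against -0.06 over all named genes. It was 3.16 for the 15 genes listed as used mainly by B cells (B-restricted below) and 1.04 for the 15 listed as shared. The first class includes Blnk, at 10.47 to 10.62 on the WT arrays, and Ebf1, so it is not strict. Over all 28 genes above background in either group, with genes dim in WT set to their lower bound, the median was 2.95. All ob/ob arrays were above all WT arrays in 23 of the 30 genes, against 13.9% of named genes. Within slides the median over the genes was 2.62, 2.57 and 1.85. In these bulk samples more B cells, more RNA per B cell and RNA of these genes from other cells cannot be told apart.

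Of the 13 surface proteins 8 rose in ob/ob, beside 4.51% of named genes. Ms4a1, which encodes the B cell antigen CD20, measured 3.12, 1.01 and 3.05 on the log2 scale in WT, 2.25, 8.70 and 3.76 in PPARγ2KO, 9.16, 8.61 and 6.55 in ob/ob and 8.91, 7.94 and 6.88 in POKO. No WT array was well above background, while all ob/ob and POKO arrays were. The rise in ob/ob over WT was at least 48.3-fold (adjusted p = 0.0433). With the slide as a block the call of Ms4a1 was lost (adjusted p = 0.0584).

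Cd79b, the second signalling chain of the receptor, measured 5.29, 4.34 and 5.67 in WT, 4.54, 10.99 and 5.90 in PPARγ2KO, 11.45, 11.08 and 9.87 in ob/ob and 11.31, 10.24 and 9.72 in POKO. Every leptin-deficient array and PPARγ2KO replicate 2 lay above 9, and the other arrays below 6. The log2 difference of ob/ob from WT was 5.70 ± 1.39 (SE, n = 3 per group), a 52.2-fold rise (adjusted p = 0.0371).

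The partner chain Cd79a was not called. It measured 1.87, 4.98 and 2.89 in WT, 1.22, 4.91 and 3.11 in PPARγ2KO, 3.88, 3.42 and 4.25 in ob/ob and 3.94, 3.50 and 3.48 in POKO. The WT and PPARγ2KO arrays spread over more than the whole range of the leptin-deficient ones, and only 1 WT array was well above background. The difference of ob/ob from WT was 0.60 ± 0.94 (adjusted p = 0.69, 95% interval -1.52 to 2.73). The interval of Cd79b was 2.58 to 8.83, so the intervals overlapped, and the chains were not compared with each other. The gene had a single probe on the array.

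Cd72, a receptor that tunes B cell signalling, measured 4.11, 3.81 and 5.01 in WT, 4.97, 7.85 and 5.64 in PPARγ2KO, 8.73, 8.23 and 7.10 in ob/ob and 8.45, 8.02 and 7.13 in POKO. The 13.0-fold rise in ob/ob (log2 3.71 ± 0.74, adjusted p = 0.0264) was also seen with its other probe (log2 3.76, adjusted p = 0.0287). Here PPARγ2KO replicate 2 lay between the lowest and highest leptin-deficient arrays.

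Fcer2a, the low-affinity IgE receptor CD23 of mature follicular B cells, measured 3.56, 2.64 and 2.38 in WT, 3.74, 5.83 and 3.09 in PPARγ2KO, 5.44, 5.65 and 6.36 in ob/ob and 5.71, 4.77 and 4.76 in POKO. It was dim on all WT arrays and rose at least 7.78-fold in ob/ob (adjusted p = 0.0308). Unlike most of the set, its highest value was on ob/ob replicate 3.

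Fcmr, the receptor for the Fc part of IgM, measured 4.53, 3.75 and 4.99 in WT, 4.32, 10.05 and 5.38 in PPARγ2KO, 10.37, 10.13 and 8.63 in ob/ob and 9.73, 9.16 and 8.30 in POKO. The leptin-deficient arrays and PPARγ2KO replicate 2 were all above 8 and the others all below 6. The rise in ob/ob was 39.1-fold (log2 5.29 ± 1.26, adjusted p = 0.0359).

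Cd37, a leukocyte tetraspanin that is abundant on B cells, measured 1.59, 1.25 and 2.35 in WT, 2.79, 6.43 and 4.20 in PPARγ2KO, 6.22, 5.87 and 5.90 in ob/ob and 5.99, 5.47 and 5.13 in POKO. All 3 PPARγ2KO arrays were above WT here. Against a WT level that was dim on every array, the rise in ob/ob came to at least 18.7-fold (adjusted p = 0.0206). Its dimmer probe gave a log2 difference of 2.84 (adjusted p = 0.0648).

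Cd38, an ectoenzyme that makes cyclic ADP-ribose and that islet cells also express, was well above background on all arrays. It measured 4.92, 5.21 and 5.26 in WT, 6.4, 6.67 and 6.06 in PPARγ2KO, 7.05, 6.53 and 6.83 in ob/ob and 6.65, 6.62 and 6.21 in POKO. No array of the other 3 genotypes reached down to WT. The difference of ob/ob from WT was 1.67 ± 0.20 on the log2 scale or 3.19-fold (adjusted p = 0.0113). The second, dimmer probe of the gene gave 0.94 (adjusted p = 0.289).

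Ly86, which encodes MD-1, the partner of CD180, rose 10.2-fold in ob/ob (adjusted p = 0.0461). With the slide as a block its call was lost (adjusted p = 0.0538). Cd180 itself was not well above background on any of the 12 arrays, so its level has only an upper bound. The tetraspanin Cd53 and the inhibitory receptor Cd22 showed log2 differences of 3.35 and 3.16 with all ob/ob arrays above all WT arrays, but adjusted p values of 0.0505 and 0.0801. Both were called without PPARγ2KO replicate 2. The complement receptor Cr2 (CD21) differed by 0.61 (adjusted p = 0.179).

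**Figure D2:**
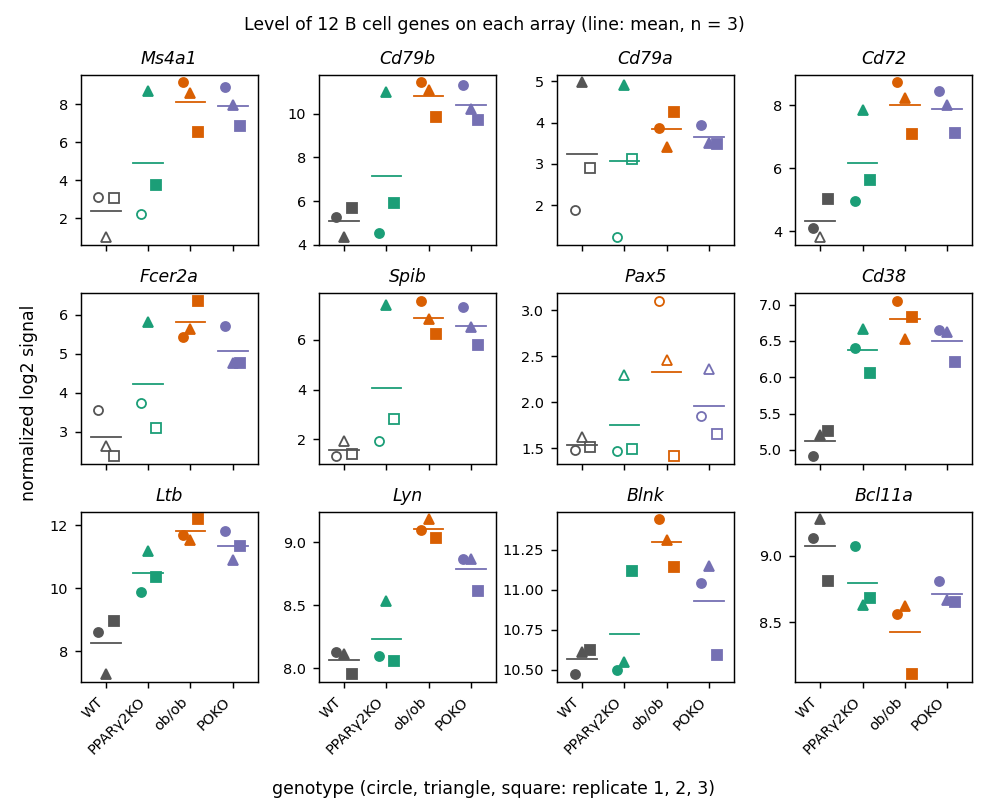
Normalized log2 signal of 12 of the genes (panels, each with its own axis) on every array by genotype, with replicates 1, 2 and 3 as circle, triangle and square, open where the probe was not well above background, and a line at the mean of n = 3. The green triangle, PPARγ2KO replicate 2, sits with the leptin-deficient arrays for Ms4a1, Cd79b and Spib (8.70, 10.99 and 7.41), while Cd79a shows no such split. Pax5 reads 2.30 on that array, above WT, but is dim on every array.

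Of the 7 signalling genes 4 rose in ob/ob, beside 4.51% of named genes. Btk, the kinase that activates phospholipase C gamma 2, measured 1.48, 1.38 and 2.32 in WT, 1.53, 5.32 and 2.82 in PPARγ2KO, 5.81, 5.27 and 4.39 in ob/ob and 5.59, 4.62 and 4.58 in POKO. It was dim in WT, and its rise in ob/ob was at least 10.8-fold (adjusted p = 0.0371, and 0.0515, not called, with the slide as a block). The B cell kinase Blk and the scaffold Bank1 were likewise dim on all WT arrays and at least 7.71-fold and 15.5-fold higher (adjusted p = 0.0435 and 0.0480). The second probe of Bank1 was well above background on 3 arrays and gave a log2 difference of 1.76 (adjusted p = 0.124).

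Lyn, an SRC-family kinase of B and myeloid cells, measured 8.13, 8.11 and 7.95 in WT, 8.10, 8.53 and 8.06 in PPARγ2KO, 9.10, 9.18 and 9.03 in ob/ob and 8.87, 8.87 and 8.61 in POKO. The levels of WT, POKO and ob/ob did not overlap, and ob/ob was 2.06-fold above WT (log2 1.04 ± 0.14, adjusted p = 0.0125). The other Lyn probe, dimmer by mean signal, gave 0.36 (adjusted p = 0.214). PPARγ2KO replicate 2 was the highest of the lean arrays and below every leptin-deficient array.

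The remaining signalling genes were present in WT islets already. The adaptor Blnk was 0.73 higher on the log2 scale in ob/ob (adjusted p = 0.0427) and did not reach the fold criterion. Syk was 1.00 higher (adjusted p = 0.102), with all ob/ob arrays above all WT arrays. Plcg2 was 0.53 lower with overlapping groups (log2 difference -0.53, adjusted p = 0.193).

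Of the 9 transcription factors 3 rose in ob/ob, beside 4.51% of named genes. Spib, an ETS factor of B cells and plasmacytoid dendritic cells, measured 1.34, 1.94 and 1.41 in WT, 1.92, 7.41 and 2.81 in PPARγ2KO, 7.57, 6.83 and 6.23 in ob/ob and 7.34, 6.5 and 5.79 in POKO. From a WT level dim on every array it rose at least 39.6-fold in ob/ob (adjusted p = 0.0311). Pou2af1, the coactivator that B cells add to octamer-binding factors, measured 3.43, 2.81 and 3.52 in WT, 3.02, 8.53 and 3.70 in PPARγ2KO, 8.86, 8.70 and 7.19 in ob/ob and 9.06, 7.67 and 7.61 in POKO. Both genes split the arrays in the same way, with PPARγ2KO replicate 2 among the high ones. Pou2af1 rose at least 31.9-fold in ob/ob (adjusted p = 0.0379).

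Irf4, a factor of activated B and T cells and of plasma cells, measured 0.98, 0.99 and 0.97 in WT, 0.97, 2.19 and 0.98 in PPARγ2KO, 4.22, 3.38 and 3.46 in ob/ob and 4.48, 2.30 and 2.48 in POKO. It was well above background on the 3 ob/ob arrays and on POKO replicate 1 alone. On PPARγ2KO replicate 2 it was below every leptin-deficient array. The bound on its rise in ob/ob was at least 5.02-fold (adjusted p = 0.0276).

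The factors that define the lineage gave less. Pax5 measured 1.48, 1.62 and 1.52 in WT, 1.47, 2.30 and 1.49 in PPARγ2KO, 3.10, 2.46 and 1.42 in ob/ob and 1.85, 2.36 and 1.66 in POKO, and none of these arrays was well above background. Its probe gives no fold. Ebf1, which stromal and fat cells also express, measured 5.08, 4.53 and 5.01 in WT, 4.96, 5.83 and 5.01 in PPARγ2KO, 5.96, 5.28 and 5.22 in ob/ob and 5.15, 5.02 and 4.65 in POKO. The ob/ob arrays were just above WT, with a log2 difference of 0.61 ± 0.29 (adjusted p = 0.185), and POKO overlapped WT.

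Bcl11a and Ikzf3 ran the other way without passing the test. Bcl11a was 8.81 to 9.27 in WT and 8.11 to 8.62 in ob/ob (log2 difference -0.64, adjusted p = 0.0505), and its other probe gave -0.68 (adjusted p = 0.153). Ikzf3, which encodes Aiolos, was 5.93 to 6.27 in WT and 4.59 to 5.72 in ob/ob (log2 difference -0.97, adjusted p = 0.0668). Prdm1 and Pou2f2 differed by 0.49 and 0.70 (adjusted p = 0.164 and 0.453), and Pou2f2 was well above background on 3 arrays.

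Ltb, a membrane lymphotoxin that B and T cells make and that shapes lymphoid tissue, was the only cytokine of the set. It measured 8.60, 7.26 and 8.95 in WT, 9.88, 11.18 and 10.35 in PPARγ2KO, 11.70, 11.53 and 12.18 in ob/ob and 11.82, 10.88 and 11.35 in POKO. WT was lowest on every array and PPARγ2KO lay between WT and ob/ob. The rise in ob/ob was 11.6-fold (log2 3.53 ± 0.48, adjusted p = 0.0126).

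The count of genes that rose in ob/ob depended on single arrays and on the background correction with its added offset. It was 3 without WT replicate 1, WT replicate 2, ob/ob replicate 2 or ob/ob replicate 3, with 0.364% to 0.923% of all probes called in these fits, against 5.47% with all arrays. It was 7 without ob/ob replicate 1 (6.58% of probes), POKO replicate 2 (3.29%) or POKO replicate 3 (3.05%), 8 without POKO replicate 1 (3.30%) and 19 of 30, beside 4.88% of named genes, without PPARγ2KO replicate 2. With normexp correction of the raw signal only Ltb was called, beside 0.903% of all probes, and the median fell to 0.31. Still, 22 of 30 genes had all ob/ob arrays above all WT arrays, beside 14.2% of named genes under that correction. The correction adds an offset of 50 to every signal, which by construction shrinks the log2 differences of dim probes. How much of the fall this accounts for was not tested.

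**Figure D3:**
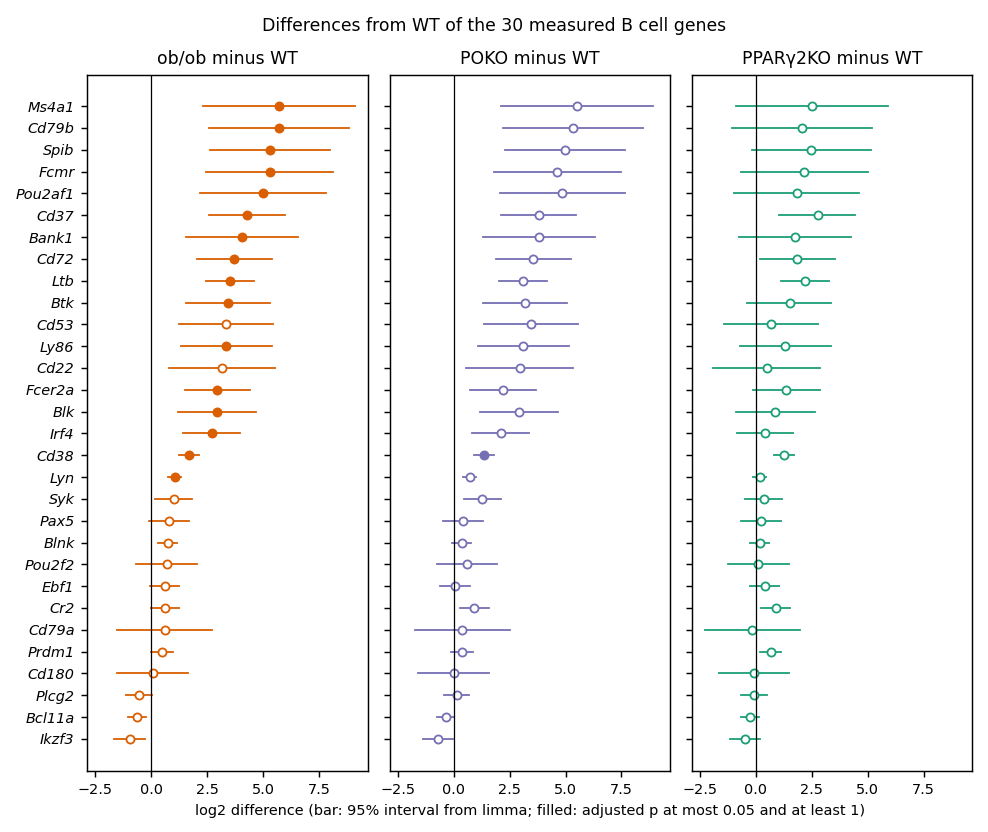
Log2 difference from WT (x axis) of the 30 genes (y axis, ordered by ob/ob vs. WT) in ob/ob, POKO and PPARγ2KO, with 95% intervals from limma and filled points where the adjusted p was at most 0.05 and the difference at least 1. In ob/ob 16 points are filled, in POKO Cd38 alone, and in PPARγ2KO none, with wide intervals throughout.

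In POKO islets 1 of 30 genes was called. Cd38 rose (log2 1.36 ± 0.20, adjusted p = 0.0401), where 0.179% of named genes rose and 0.0116% fell. With the slide as a block the call was lost (adjusted p = 0.0985). Of the 30 genes 28 were higher than in WT. The median difference from WT was 2.16 against -0.06 over all named genes, and within slides it was 2.69, 1.87 and 1.77. At an unadjusted p under 0.05, 21 of 30 genes differed, against 17.2% of named genes, and all POKO arrays were above all WT arrays in 21 of 30, against 12% of named genes. Both comparisons share the WT arrays.

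Leaving out PPARγ2KO replicate 2, which is no part of POKO vs. WT but adds to the shared spread, took the number of genes that rose in POKO from 1 to 16, where 1.83% of named genes rose. Ly86 was then 3.12 ± 0.29 higher on the log2 scale (adjusted p = 0.00391) and Cd79b 5.32 ± 0.61 (adjusted p = 0.00782). Spib and Ms4a1, dim on all WT arrays, were at least 31.4-fold and 42.1-fold higher (adjusted p = 0.00391 and 0.0261). The differences themselves were those of all 12 arrays. Only the spread changed, through an array picked out on these same genes. The count in POKO was 0 without WT replicate 1, WT replicate 2, ob/ob replicate 2, ob/ob replicate 3 or any single POKO array. In these fits 0.0316% to 0.126% of all probes were called, against 0.172% with all arrays. The count was 2 without WT replicate 3 (0.884% of probes) and 3 without PPARγ2KO replicate 1 (0.578%).

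Loss of PPARγ2 on the leptin-deficient background was compared directly. No gene of the 30 was called between POKO and ob/ob, with or without PPARγ2KO replicate 2, nor with all arrays was any of the named genes (0%), and 2 of 30, Lyn and Plcg2, had an unadjusted p under 0.05, against 11.8% of named genes. The median difference was -0.22, with 6 of 30 genes higher in POKO, and -0.10, -0.32 and -0.17 within slides. By its brighter probe Lyn was lower on every POKO array than on any ob/ob array (log2 difference -0.32, adjusted p = 0.532). The other Lyn probe, well above background on all 12 arrays, went the other way (0.10, adjusted p = 0.983). Plcg2 was 0.66 higher with overlap (adjusted p = 0.531). The intervals were wide for the B-restricted genes: that of Ms4a1 ran from -3.59 to 3.19, that of Cd79b from -3.50 to 2.74 and that of Spib from -3.01 to 2.34 on the log2 scale, so changes of several-fold either way were within them. For Cd38 it ran from -0.76 to 0.14.

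Loss of PPARγ2 in lean mice gave no call among the 30 genes, as over all named genes (0%), while 6 of 30 had an unadjusted p under 0.05, against 8.83% of named genes. The median difference from WT was 0.77, but within slides it was -0.01, 2.28 and 0.17, the second slide being that of PPARγ2KO replicate 2, and without that array it was 0.11. Cr2, Cd37, Cd38, Prdm1 and Ltb, 5 of 30 genes (16.7%), were above every WT array in all 3 replicates, against 4.88% of named genes. Of these Cd38 had the smallest adjusted p, 0.153 with all arrays (log2 1.25 ± 0.20) and 0.199 without replicate 2 (1.1 ± 0.21), and Ltb differed by 2.20 ± 0.48 (adjusted p = 0.311).

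Leptin deficiency was also compared with lean PPARγ2KO islets. No gene of the 30 was called in POKO vs. PPARγ2KO, beside 0% of named genes, or in ob/ob vs. PPARγ2KO, beside 0.00578%. At an unadjusted p under 0.05, 9 of 30 genes differed in the first, against 12.9% of named genes, and 14 in the second, against 25.1%. Within slides the median in POKO vs. PPARγ2KO was 2.34, -0.27 and 1.40, and in ob/ob vs. PPARγ2KO it was 2.25, -0.05 and 1.63. Without PPARγ2KO replicate 2, 6 of 30 genes rose in POKO, beside 0.693% of named genes, and 7 in ob/ob, beside 0.942%. Cd79b, Fcmr, Cd53, Ly86, Pou2af1 and Spib rose in both and Lyn in ob/ob, with Ly86 3.34 ± 0.33 higher in ob/ob (adjusted p = 0.00836). Here the array left out belongs to the reference group and was picked for being high on these genes. Its removal raised the median difference from 0.91 to 1.57 in POKO and from 1.43 to 2.04 in ob/ob. These counts and p values therefore describe the choice of array as well and give no support.

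The interaction asked whether loss of PPARγ2 acted differently with and without leptin. No gene of the 30 was called, beside 0% of named genes, and 7 had an unadjusted p under 0.05, against 16.1% of named genes. The median interaction was -0.92, and within slides -0.23, -2.62 and -0.36, the second slide being that of PPARγ2KO replicate 2. The median was -0.52 without that array and -1.43 without PPARγ2KO replicate 1. Cd38 gave -1.56 ± 0.28 (adjusted p = 0.213) and Ltb -2.65 ± 0.67 (adjusted p = 0.257).

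Among the 16 genes that rose in ob/ob, replicate 1 of each leptin-deficient genotype was mostly the highest and replicate 3 the lowest. The highest of the 12 arrays was ob/ob replicate 1 in 9 genes. The lowest of the 6 leptin-deficient arrays was POKO replicate 3 in 8 genes and ob/ob replicate 3 in 6. Replicate 1 was above replicate 3 in 14 of 16 genes in ob/ob and in 16 of 16 in POKO, by a median of 1.385 and 1.355 log2 units. A replicate number marks a slide here. The order was counted only over these called genes and not over all named genes, so it cannot be said to be particular to them.

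Promoter sequence was examined for motifs of B cell factors, as a description. RefSeq promoters on build GRCm38.p6, 250 bases before to 50 after the start, were found for 25 of the 31 genes. Ms4a1, Cd79b, Cd40, Blk, Lyn and Ikzf3 had no entry. On either strand the octamer ATGCAAAT was in 1 of 25 genes (4.0%, Blnk) and in 1.97% of all genes in the table. The EBF half-site pair CCCNNGGG was in 4 (16.0%, Cd22, Cd53, Bank1 and Spib), against 15.4%, the ETS motif GAGGAAGT in 3 (12%, Cd72, Cd37 and Cd53), against 3.69%, and the E-box CAGGTG in 12 (48.0%), against 22.6%. A gene with several starts counted once if any of them held the motif.

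The 100 bases just before the start are shown for 5 genes that rose in ob/ob and hold one of these motifs there, so that the place of the motif can be compared between them. Capitals mark the motif: the reverse complement of the ETS motif in Cd72 (chr4:43454627-43454726, minus strand) and Cd37 (chr7:45238840-45238939, minus strand), the EBF half-site pair in Bank1 (chr3:136326067-136326166, minus strand) and, in overlapping copies, in Spib (chr7:44532072-44532171, minus strand), and the E-box in Ltb (chr17:35194407-35194506, plus strand).
Cd72: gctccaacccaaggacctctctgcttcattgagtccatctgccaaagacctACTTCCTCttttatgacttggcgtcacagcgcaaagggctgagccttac
Cd37: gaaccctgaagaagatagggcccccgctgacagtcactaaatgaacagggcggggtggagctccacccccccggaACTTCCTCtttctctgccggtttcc
Bank1: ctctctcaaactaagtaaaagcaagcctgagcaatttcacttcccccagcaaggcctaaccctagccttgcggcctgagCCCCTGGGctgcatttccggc
Spib: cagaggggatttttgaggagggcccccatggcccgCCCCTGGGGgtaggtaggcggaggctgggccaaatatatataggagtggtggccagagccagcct
Ltb: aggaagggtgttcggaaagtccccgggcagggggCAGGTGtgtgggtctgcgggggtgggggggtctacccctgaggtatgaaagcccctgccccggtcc
Counted back from the start, the motif's first base is at -25 in Cd37, -49 in Cd72, -21 in Bank1, -65 in Spib and -66 in Ltb. Cd79a, which was not called, holds an E-box at -154.

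Other genes of the B cell receptor pathway were read from a separate list. Of 31 measured genes 13 rose in ob/ob and none fell, beside 4.51% and 2.17% of named genes. Whether or not they passed, 24 were higher, and the median log2 difference of the list was 0.98. Fyn had no matched probe. Siglecg, an inhibitory lectin of B cells, rose by 2.12 (adjusted p = 0.0175), the guanine nucleotide exchange factor Vav1 by 1.77 (adjusted p = 0.0187), the phosphoinositide kinase subunit Pik3cd by 3.27 (adjusted p = 0.0215) and the GTPase Rac2 by 3.90 (adjusted p = 0.0251). Fcrl1, a B cell Fc receptor-like protein, was dim in WT and at least 21.3-fold higher (adjusted p = 0.0270). In POKO none of the 31 was called with all arrays, where 0.179% of named genes rose. Without PPARγ2KO replicate 2, 10 rose, beside 1.83% of named genes.

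Survival, homing and follicle genes gave 6 rises among 18 measured in ob/ob, beside 4.51% of named genes, with a median of 1.56. The chemokine receptor Cxcr4 rose by 1.48 (adjusted p = 0.0241), the sphingosine phosphate receptor S1pr1 by 1.22 (adjusted p = 0.0282), lymphotoxin alpha (Lta) by 1.78 (adjusted p = 0.0325) and the lymph node homing receptor Ccr7 by 3.06 (adjusted p = 0.0402). T cells carry most of these as well. Tnfsf13, Fdcsp and Bcl2a1a had no matched probe.

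Transcription factors outside the set and genes of early and late stages of the lineage were counted in the same way. Over all named genes 4.51% rose in ob/ob. Of 14 other transcription factors 3 rose, Ikzf1 and Ciita (at least 10.6-fold and 16.9-fold, adjusted p = 0.0248 and 0.0331) and Irf8 (log2 1.58, adjusted p = 0.0389), and Bach2 and Nfkb1 were not measured. Of 9 B cell precursor genes 1 rose, the interleukin 7 receptor Il7r, which T cells also carry (at least 5.33-fold, adjusted p = 0.0400), and Igll1 was not measured. Of 8 plasma cell genes 1 rose, the immunoglobulin-folding cofactor Mzb1 (log2 3.89, adjusted p = 0.0490), and Tnfrsf17, the plasma cell receptor BCMA, was dim on all 12 arrays. The immunoglobulin genes Ighm, Ighg1, Igha and Igkc had no matched probe.

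Markers of other blood cells moved as well, and their part in the result was not tested. Over all named genes 4.51% rose in ob/ob and 2.17% fell. Of 16 T cell genes 11 rose in ob/ob and none fell, among them Lat and Zap70 (at least 31.1-fold and 8.03-fold, adjusted p = 0.0217 and 0.0270), Cd3d (log2 6.42, adjusted p = 0.0309), Lck (2.51, adjusted p = 0.0311) and Bcl11b (3.58, adjusted p = 0.0331), and Cd8b1 was not measured. The mean log2 signal of the list was 3.56 to 3.83 in WT, 3.93 to 6.44 in PPARγ2KO, 5.99 to 7.52 in ob/ob and 5.39 to 7.03 in POKO. The arrays did not rank as for B cell genes: the mean of the T cell list, relative to WT, was 2.30, 2.59 and 3.83 in ob/ob replicates 1, 2 and 3, while that of the 15 B-restricted genes was 3.66, 3.31 and 2.47. Of 9 pan-leukocyte genes 8 rose, led by Laptm5, Coro1a, Rac2, Cd52 and Ptprc (log2 3.06 to 4.49, adjusted p = 0.0241 to 0.0292), with a mean signal of 5.72 to 6.18 in WT and 8.90 to 9.40 in ob/ob.

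Myeloid and NK genes differed from array to array. Their calls stand beside the 4.51% of named genes that rose in ob/ob. Of 11 macrophage genes 1 rose, the complement component C1qa (log2 1.34, adjusted p = 0.0323), Cd68 and Clec7a were not measured, and the list's mean ran from 6.07 to 6.99 in WT and from 6.87 to 8.23 in ob/ob. None of 8 neutrophil genes was called (Ly6g was not measured), and the list's mean, 2.11 to 2.37 in WT, was 2.28 to 5.43 in ob/ob and 4.47 to 7.52 in POKO. Of 10 NK cell genes Gzmb rose (at least 27.7-fold, adjusted p = 0.0458), and Ncr1, Klrb1c, Klra8, Eomes and Klrk1 were dim on all arrays. None of 7 dendritic cell genes was called, Siglech and Cd209a were dim throughout, and Zbtb46 and Clec9a were not measured.

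**Figure D4:**
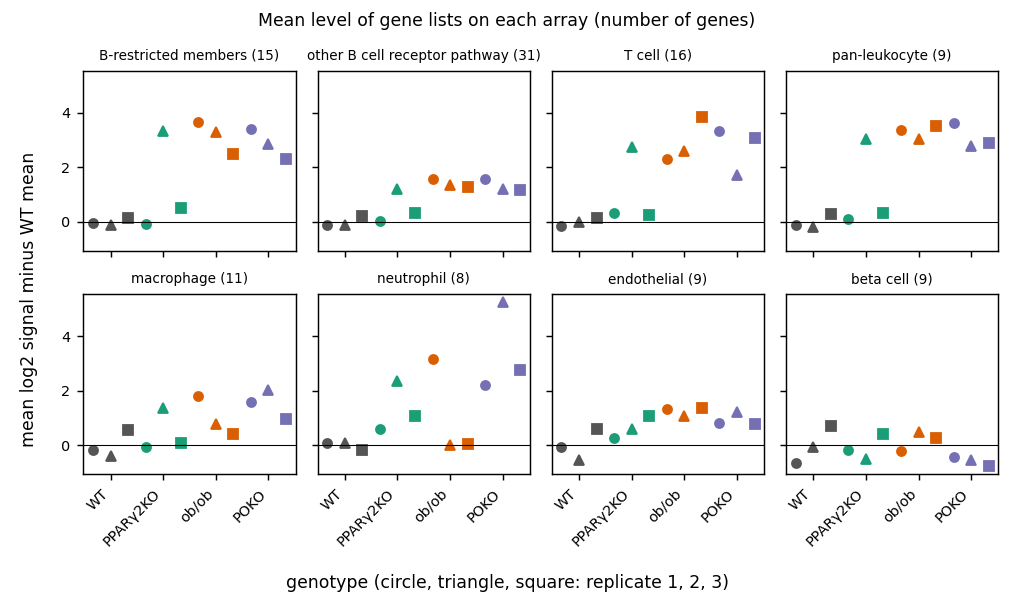
Mean log2 signal minus the WT mean (y axis) of 8 gene lists on every array, by genotype, with replicates 1, 2 and 3 as circle, triangle and square and the number of genes in brackets. B-restricted, T cell and pan-leukocyte genes are above WT on all leptin-deficient arrays and on PPARγ2KO replicate 2, while in ob/ob the B-restricted mean is highest on replicate 1 (3.66) and the T cell mean on replicate 3 (3.83).

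The remaining lists stand beside the 4.51% of named genes that rose in ob/ob and the 2.17% that fell. Of 9 endothelial genes 5 rose, Cdh5, Egfl7, Esam, Tie1 and Plvap (log2 1.17 to 1.71, adjusted p = 0.0250 to 0.0430). The mean of the endothelial list was 7.86 to 8.98 in WT and 9.45 to 9.77 in ob/ob. Of 5 erythroid genes Hba-a1 and Alas2 rose (log2 3.07 and 2.83, adjusted p = 0.0287 and 0.0463), and Hbb-b1 was not measured. None of the 8 lymphatic and high endothelial venule genes was called. Among islet and exocrine lists, Nkx6-1 rose by 1.09 (adjusted p = 0.0397) of 9 beta cell genes, none of 10 acinar genes was called, Iapp and Prss1 were not measured, and the duct genes Krt19 and Cftr fell by 1.57 and 1.33 (adjusted p = 0.0173 and 0.0436). The fat cell gene Fabp4 rose by 1.31 (adjusted p = 0.0449) while Adipoq was dim on all arrays, and of 8 fibroblast genes only Thy1 rose, which T cells share.

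**Figure D5:**
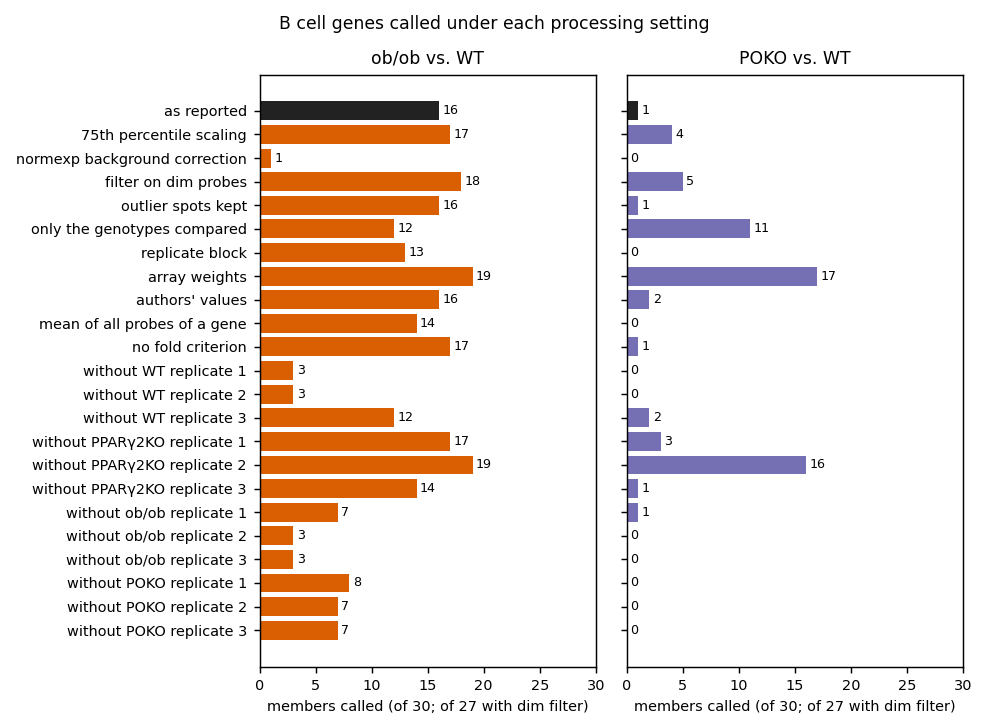
Number of B cell genes called (x axis, of 30, or of 27 with the filter on dim probes) in each leptin-deficient genotype against WT under each processing setting (y axis), the reported setting in black. The ob/ob count runs from 1 to 19 and the POKO count from 0 to 17, the latter reaching 16 when PPARγ2KO replicate 2 is left out.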

How the data were processed

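Agilent 4x44K arrays in 1 colour were read by the study with Feature Extraction 10.1.1.1 (submitters' processing notes). Per the file headers, the deposited processed signal is a background-subtracted intensity with no normalization between arrays. The series' value table, deposited by the authors, holds log2 values that correlated at 0.9997 with those computed here, not centred, with medians of 4.88 to 4.91. Of 45018 spots, 1639 controls were left out, which left 41174 probes. Here quantile normalization over all 12 arrays preceded log2 transformation, 919 outlier spots were dropped and spots of a probe averaged. A single limma fit (3.58.1, in R 4.3.3, lmFit and eBayes, genotype as the only factor) gave all comparisons, with Benjamini-Hochberg adjustment over 41174 probes. A gene was called at an adjusted p of at most 0.05 and an absolute log2 difference of at least 1. Probes were named by RefSeq accession (25097 with a symbol, 16077 without), and the brightest probe stood for a gene.

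Where every array of a group had a probe not well above background, the fold is a bound: the bright group's mean against, for each dim array, the higher of its own value and the lowest signal called well above background. 95% intervals are from the fit. Values by array are given for the 12 called genes with the smallest adjusted p and for Ms4a1, Cd79a, Cd79b, Pax5, Ebf1 and Cd38. From other lists up to 5 called genes were named. A few genes of these lists are counted but not reported here by name. Members and lists were chosen with earlier results of these data known. The age is that of the labels, and the study's text gives a slightly later one. Alternatives were another scaling, normexp (offset 50) on median signals, a dim-probe filter, outlier spots kept, fits on the compared genotypes, a replicate block, array weights, the authors' values, the mean of all probes, other thresholds and each array left out. The number of arrays limits precision. The scripts were tested on simulated data.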

Additional observations from a re-analysis of the deposited data

Results flagged for a closer look

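For 4 of 30 genes (13.3%, against 8.28% of named genes) the within-slide differences of POKO from ob/ob all had one sign and those of PPARγ2KO from WT all had the other. The interaction, the test of the difference itself, passed the adjusted threshold for none of them. Cd37 gave an interaction of -3.21 (adjusted p = 0.283), with slide differences of -0.23, -0.40 and -0.76 in POKO vs. ob/ob and 1.20, 5.18 and 1.85 in PPARγ2KO vs. WT. Spib gave -2.82 (adjusted p = 0.478), with -0.23, -0.34 and -0.44 in POKO vs. ob/ob. Its probe was dim on the WT arrays and on PPARγ2KO replicates 1 and 3, so the sign of its PPARγ2KO differences on slides 1 and 3 rests on dim spots. The same held for Cd37 on slide 1. Bcl11a gave 0.56 (adjusted p = 0.369), with 0.25, 0.05 and 0.54 against -0.06, -0.64 and -0.13. Plcg2 gave 0.74 (adjusted p = 0.395), with 0.29, 0.47 and 1.21 against -0.09, -0.16 and -0.02. The second slide held PPARγ2KO replicate 2.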

How the results depend on the processing

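The number of arrays, the dim WT level of many of these genes and the spread added by PPARγ2KO replicate 2 limit these results. With normexp correction the count of genes that rose was 1 in ob/ob (0.903% of all probes called) and 0 in POKO (0.00243%). The median difference was then 0.31 in ob/ob vs. WT, 0.25 in POKO vs. WT, -0.08 in POKO vs. ob/ob and 0.18 in ob/ob vs. PPARγ2KO. The count in POKO, with the share of all probes called, was 4 with 75th percentile scaling (0.767%), 5 with the filter on dim probes (1.89%, median 2.91), 11 in a fit on the compared genotypes (0.884%), 17 with array weights (4.13%), 2 with the authors' values (0.265%) and 0 with the mean of all probes (0.168%), against 0.172% as reported. The mean of all probes gave a median of 2.25 in ob/ob. At the study's looser limit on the adjusted p, 1 gene, Cd38, was called in PPARγ2KO vs. WT, beside 0.0971% of all probes. With arrays left out in turn the count ran from 3 to 19 in ob/ob vs. WT and 0 to 16 in POKO vs. WT. It ran from 0 to 6 in POKO vs. PPARγ2KO and 0 to 7 in ob/ob vs. PPARγ2KO. In PPARγ2KO vs. WT it was 0 to 1 (1 without PPARγ2KO replicate 3, beside 0.301% of probes). For the interaction it was 0 to 1 (1 without WT replicate 3, beside 1.36% of probes). The median then ran from 1.66 to 2.44 in POKO vs. WT and from -0.48 to 0.02 in POKO vs. ob/ob. Cd180 turned to -0.02 with 75th percentile scaling and -0.11 with array weights, and ran from -0.30 to 0.77 with arrays left out. Cd79a turned to -0.01 with array weights and ran from -0.09 to 1.47. The causes were not tested.

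With the replicate number as a block, 13 genes were called in ob/ob and 0 in POKO, where the call of Cd38 was lost (5.36% and 0.0170% of probes). In ob/ob the calls of Ms4a1, Ly86 and Btk were lost (adjusted p = 0.0584, 0.0538 and 0.0515). Deviations of same-numbered arrays correlated at -0.32 to 0.28 (5 of 18 pairs above 0.1) and those of other pairs at -0.38 to 0.34 (13 of 36). The main fit therefore had no block. A replicate number still marks a slide, and the called genes were mostly higher on the first slide than on the third in both leptin-deficient genotypes.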

Other observations

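Glycam1, a sialomucin made by the high endothelial venules through which lymphocytes enter lymph nodes, was looked at after its values were seen. Its normalized log2 signal was 1.68, 1.02 and 1.00 in WT, 5.03, 4.06 and 3.01 in PPARγ2KO, 3.29, 7.18 and 7.8 in ob/ob and 7.19, 3.90 and 8.58 in POKO. It did not pass the test in ob/ob vs. WT (log2 difference 4.86, adjusted p = 0.0508) or in POKO vs. WT (5.33, adjusted p = 0.119). Ccl21a, a chemokine of lymphatic vessels and lymph nodes also chosen after its values were seen, was 5.77 to 6.15 in WT, 6.90 to 8.87 in ob/ob and 5.67 to 7.95 in POKO (log2 difference of ob/ob from WT 1.66, adjusted p = 0.126). Both genes were picked from the list of 8 lymphatic and high endothelial venule genes. Of the 8, only 5 were higher than WT in ob/ob (median log2 difference 0.56) and 5 in POKO (median 0.33).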
